A study of Mus musculus with 12 samples.

Results

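Chemokine signalling in migrating interneurons was followed through the genes of 2 CXCL12 receptors, Cxcr4 and Ackr3, and of the chemokine Cxcl14. Members were the probe sets of the deposited table that carry a single gene symbol from a list of 4 genes, Cxcr4, Ackr3, Cxcl12 and Cxcl14. Of these genes 3 had such a probe set, out of 11358 gene symbols with one, and they were read by 4 probe sets, 1 each for Cxcr4 and Ackr3 and 2 for Cxcl14. The ligand gene Cxcl12 was not analysed here. All 4 probe sets passed the filter on dim values, which left 8795 genes in the tests.

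RNA came from fluorescent cells sorted from the mouse embryonic cortex and was read on 12 Affymetrix arrays, with 3 arrays in each of 4 groups. Cells of the medial ganglionic eminence (MGE) carried the genotype Nkx2-1-Cre;R26R-YFP and were taken at E14.5 and at E18.5. Cells of the caudal ganglionic eminence (CGE) came from Nkx2-1-Cre;Dlx1-lox-Venus-lox embryos and were taken at E16.5 and at E18.5. In the first cross Nkx2-1-Cre switches a Rosa26 reporter on for good, so every descendant of an Nkx2-1 expressing progenitor is labelled, glia included. In the second cross the Cre removes a Dlx1-driven Venus reporter, so the cells that keep the signal can come from the lateral as well as the caudal eminence. Embryos were pooled, in numbers per array that the sources used here do not state, and no group was treated or mutant for a chemokine gene. The p-values therefore measure the spread between these arrays, whose source pools could not be checked. The MGE arrays 1 and 2 at E14.5 were the closest replicate pair, with log2 differences of SD 0.231 against 0.376 to 0.518 for the other pairs, and both were kept.

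CXCL12 is a chemokine made by the meninges and by intermediate progenitors of the embryonic cortex, and it holds tangentially migrating interneurons within their streams. CXCR4 is the G protein coupled receptor through which CXCL12 signals, and ACKR3, also called CXCR7, is an atypical receptor that recruits beta-arrestin and takes CXCL12 up, so that cells can shape the supply of the ligand they respond to. CXCL14 is a chemokine of the same CXC class whose main receptor is less settled, and it is a known product of some CGE-derived interneurons of the adult cortex.

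The upstream sequences of the receptor genes are shown because both receptors bind the same ligand while their probe sets followed different patterns across the groups. They are the 250 bases before the RefSeq start of each gene in GRCm38.p6, at chr1:128592300-128592549 on the minus strand for Cxcr4 and at chr1:90203730-90203979 on the plus strand for Ackr3. Capitals mark matches to TATAAA on either strand, a TATA box core that 12.4% of 32851 mouse windows of this length held.

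Cxcr4: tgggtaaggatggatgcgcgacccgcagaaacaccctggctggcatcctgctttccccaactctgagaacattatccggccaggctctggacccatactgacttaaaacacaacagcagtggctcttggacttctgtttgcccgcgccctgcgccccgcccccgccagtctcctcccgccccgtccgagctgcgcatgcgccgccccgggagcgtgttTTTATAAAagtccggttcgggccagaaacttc

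Ackr3: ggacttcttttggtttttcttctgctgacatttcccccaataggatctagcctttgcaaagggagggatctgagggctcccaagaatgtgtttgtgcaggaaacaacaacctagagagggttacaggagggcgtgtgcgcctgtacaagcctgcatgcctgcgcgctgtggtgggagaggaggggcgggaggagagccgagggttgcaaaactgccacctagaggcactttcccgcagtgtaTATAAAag

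In Cxcr4 a match on each strand overlapped, with first bases 32 and 30 bases before the start, and in Ackr3 a single match began 8 bases before it. The window of Cxcl14 held no TATAAA. The RefSeq gene record of Cxcl14 reaches past its window, which may therefore lie inside a longer transcript, so for Cxcl14 only a stretch of 30 bases is shown, chr13:56296664-56296693 on the minus strand of GRCm38.p6, which holds the match to AGGTCA, a core site of nuclear receptors that 14% of the windows held. The match lay on the opposite strand, so it reads TGACCT here.

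Cxcl14: cgtgctcccgccTGACCTtcttccaaggca

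The GC box core CCCGCC, present in 32.5% of windows, occurred 3 times upstream of Cxcr4, 1 time upstream of Ackr3 and 2 times in the window of Cxcl14. The homeodomain core TAATTA (4.84% of windows) and the E-box CACGTG (6.02% of windows) were in none of the 3. These matches describe the letters of the windows only.

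The labels were checked against lineage genes. Lhx6, the transcription factor of MGE interneurons, had a mean log2 intensity of 12.91 in MGE cells at E14.5 and 12.62 at E18.5, against 10.77 and 10.65 in CGE cells at E16.5 and E18.5, so it was lower in the CGE groups but well above the filter level of 7.10 to 7.17. Sp8, a CGE lineage factor, was at 11.91 and 12.02 in the CGE groups and at 4.31 and 4.54 in the MGE groups. Prox1, another CGE lineage factor, was at 11.85 and 11.57 in the CGE groups, at 4.55 in MGE cells at E14.5 and at 9.02 in MGE cells at E18.5. Gad1, which makes the GABA-synthesising enzyme, was at 10.62, 10.77, 9.81 and 10.59 in MGE E14.5, CGE E16.5, MGE E18.5 and CGE E18.5. MGE cells at E18.5 also carried 14 measured markers of oligodendrocyte precursors at a mean log2 intensity of 10.34 to 11.09, against 5.92 to 6.89 on the other 9 arrays.

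Cxcr4 was bright in every group. The probe set 1448710_at read 12.83, 12.81 and 12.89 in MGE cells at E14.5 and 12.81, 12.87 and 12.82 in MGE cells at E18.5 (log2 intensity, replicates 1 to 3). It read 12.51, 12.79 and 13.11 in CGE cells at E16.5 and 12.29, 11.85 and 12.75 in CGE cells at E18.5. The 6 MGE arrays lay within a range of 0.08 of each other, while the CGE arrays spread more widely and those at E18.5 all lay below the MGE arrays.

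The group means of Cxcr4 were 12.84 ± 0.04 (SD, n = 3) in MGE E14.5, 12.84 ± 0.03 in MGE E18.5, 12.80 ± 0.30 in CGE E16.5 and 12.30 ± 0.45 in CGE E18.5. Cxcr4 was not called in the early comparison, at 0.04 ± 0.20 (log2 difference MGE minus CGE ± SE, limma, adjusted p = 0.941, interval -0.41 to 0.49). In the late comparison it was 0.54 ± 0.20 (adjusted p = 0.0797, interval 0.09 to 0.98) and was not called, although the groups did not overlap, which was true of 36.8% of all genes tested there. Without CGE E18.5 replicate 3 the late difference was 0.77 with an adjusted p of 0.0115, and without replicate 2 of that group it was 0.31 with an adjusted p of 0.258.

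With age, Cxcr4 differed in MGE cells by -0.01 ± 0.20 (E18.5 minus E14.5, limma adjusted p = 0.989, interval -0.45 to 0.44). In CGE cells it differed by -0.50 ± 0.20 (E18.5 minus E16.5, limma adjusted p = 0.139, interval -0.95 to -0.06). Leaving out CGE E18.5 replicate 3 moved this to -0.73 with an adjusted p of 0.0273. The change of the lineage difference, late minus early, was 0.50 ± 0.29 (limma adjusted p = 0.347), so a change of the lineage difference of Cxcr4 was not detectable with 3 arrays per group.

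**Figure D1:**
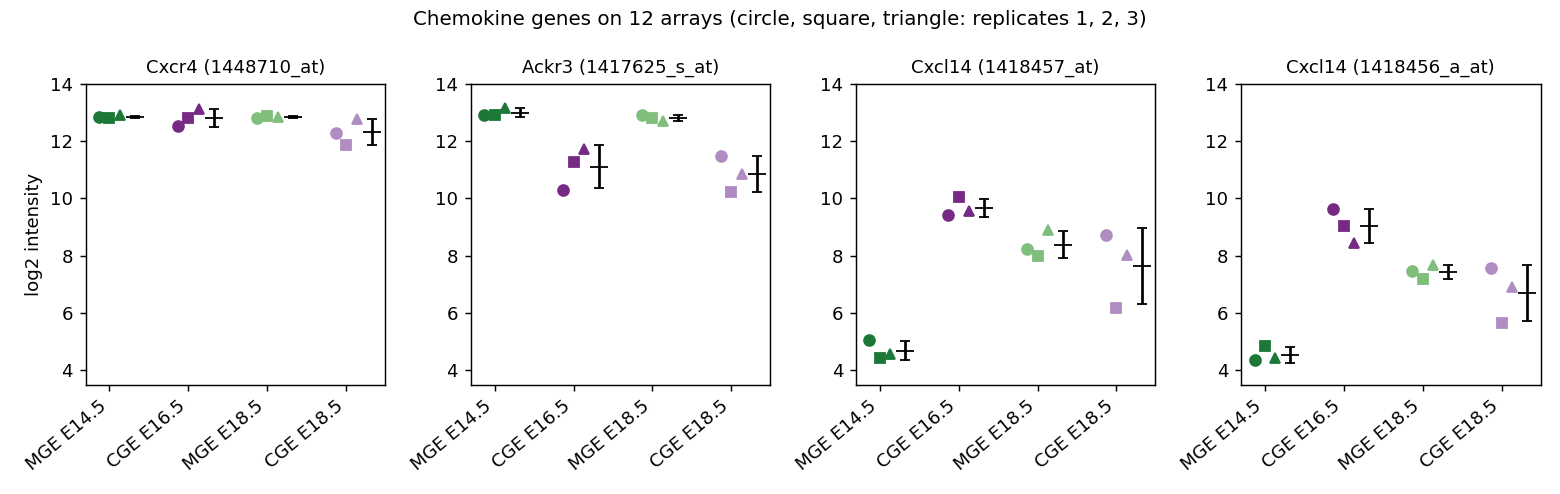
Log2 intensity (y axis) of the 4 probe sets on each of the 12 arrays, by group (x axis), with replicates 1, 2 and 3 as circle, square and triangle and the mean ± SD of each group in black. Cxcr4 lies between 11.85 and 13.11 everywhere, the 6 MGE arrays of Ackr3 lie above all CGE arrays, and both Cxcl14 probe sets are lowest in MGE E14.5 and highest in CGE E16.5.

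Ackr3 separated the lineages at both ages. Its only probe set has the suffix _s_at, which marks probes that can match more than 1 transcript sequence. The probe set 1417625_s_at read 12.91, 12.91 and 13.16 in MGE cells at E14.5 and 12.91, 12.82 and 12.71 at E18.5. In CGE cells it read 10.27, 11.28 and 11.73 at E16.5 and 11.47, 10.22 and 10.83 at E18.5. All 6 MGE arrays were above all 6 CGE arrays, and the CGE arrays varied more among themselves. Groups without overlap were found for 33.1% of all genes in the early comparison and 36.8% in the late one.

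Ackr3 was higher in MGE cells by 1.90 ± 0.35 in the early comparison (3.72-fold, limma adjusted p = 0.0041, interval 1.14 to 2.65). In the late comparison it was higher by 1.97 ± 0.35 (3.92-fold, limma adjusted p = 0.00151, interval 1.22 to 2.73). With age it differed by -0.18 ± 0.35 in MGE cells (limma adjusted p = 0.759) and by -0.26 ± 0.35 in CGE cells (limma adjusted p = 0.678). The lineage difference itself moved by 0.08 ± 0.49 between the ages (limma adjusted p = 0.946, interval -0.99 to 1.15). The order of the group means was MGE E14.5, MGE E18.5, CGE E16.5 and CGE E18.5, and in that order only the step from MGE E18.5 to CGE E16.5 passed the test (CGE minus MGE -1.72, limma adjusted p = 0.00356).

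The genes whose profile over the 12 arrays was most like that of Ackr3, each centred on its own mean, were Dlgap1, Lhx6 and Dlgap2. Their root mean square differences from Ackr3 were 0.214, 0.288 and 0.303 log2 units. Dlgap1 and Dlgap2 encode scaffold proteins of the postsynaptic density. In CGE cells at E16.5, Lhx6 read 10.24, 10.74 and 11.33 and Ackr3 had the same order of arrays. At E18.5 the lowest CGE array of Ackr3 and of Lhx6 (10.45) was replicate 2 for each gene. The highest differed, replicate 1 for Ackr3 (11.47) and replicate 3 for Lhx6 (10.87). Likeness was measured over 4 groups that differ strongly in lineage, so it ranks genes with this lineage pattern and says nothing more.

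**Figure D2:**
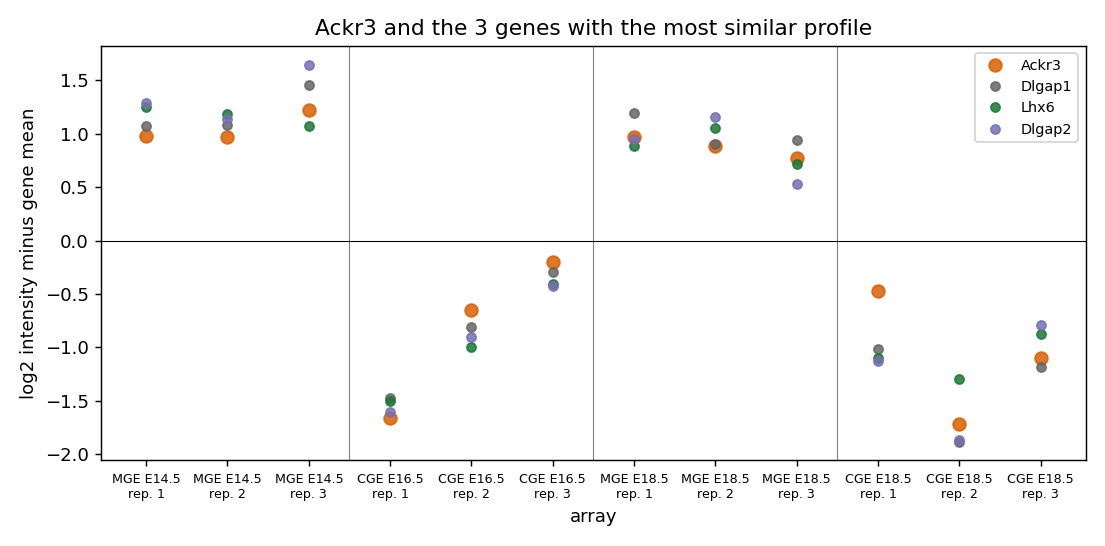
Log2 intensity minus the gene's own mean over 12 arrays (y axis) for Ackr3, Dlgap1, Lhx6 and Dlgap2 on each array (x axis), with vertical lines between groups. All 4 genes lie above 0 on the 6 MGE arrays and below 0 on the 6 CGE arrays, and all 4 are higher in CGE E16.5 replicate 3 than in replicate 1.

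Other cells in the CGE sort were measured beside these values. The mean log2 intensity of 6 genes of the lateral eminence, striatal and olfactory lineage was 8.89, 7.56 and 7.73 in CGE E16.5 and 9.80, 8.70 and 8.22 in CGE E18.5 (replicates 1 to 3), against 6.30 to 7.18 on the MGE arrays. At E16.5 the array with the highest value for these genes had the lowest Ackr3 and Cxcr4, whereas at E18.5 it had the highest Ackr3. The part of lateral eminence cells in the Ackr3 difference was not tested, and in bulk samples fewer cells of a type and less RNA per cell cannot be told apart. Leaving out both CGE E16.5 replicate 1 and CGE E18.5 replicate 2, a choice made after the data were seen, gave lineage differences of 1.49 (adjusted p = 0.0013) and 1.66 (adjusted p = 0.000299) for Ackr3.

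Cxcl14 differed between the early groups, rose with age in MGE cells and fell with age in CGE cells. The probe set 1418457_at read 5.05, 4.44 and 4.58 in MGE cells at E14.5, below the filter level on each array. In CGE cells at E16.5 it read 9.42, 10.04 and 9.54. In MGE cells at E18.5 it had risen to 8.23, 8.0 and 8.91, and in CGE cells at E18.5 it stood at 8.74, 6.18 and 8.02. The groups at the early ages were far apart, and those at E18.5 overlapped because CGE arrays lay both above and below the lowest MGE array.

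Cxcl14 was lower in MGE cells by 4.98 ± 0.51 on the log2 scale in the early comparison, where the log2 difference was -4.98 (31.5-fold, limma adjusted p = 6.13e-05, interval -6.09 to -3.87). It rose in MGE cells by 3.69 ± 0.51 from E14.5 to E18.5 (12.9-fold, limma adjusted p = 0.000307, interval 2.58 to 4.80). In CGE cells it fell by 2.02 ± 0.51 from E16.5 to E18.5 (4.06-fold, limma adjusted p = 0.0277, interval of the log2 difference -3.13 to -0.91). At E18.5 the lineage difference was 0.73 ± 0.51 (limma adjusted p = 0.33, interval -0.38 to 1.84). The change of the lineage difference was 5.71 ± 0.72 (limma adjusted p = 0.000349, interval 4.14 to 7.28). Because the MGE arrays at E14.5 were dim and no detection calls were used, the early difference and the rise in MGE cells may be understated.

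The order of the Cxcl14 group means was CGE E16.5 (9.67 ± 0.33, SD, n = 3), MGE E18.5 (8.38 ± 0.47), CGE E18.5 (7.64 ± 1.32) and MGE E14.5 (4.69 ± 0.32). The neighbours CGE E16.5 and MGE E18.5 differed by 1.29 (limma adjusted p = 0.0838, interval 0.18 to 2.40) and did not pass the test. MGE E14.5 lay below CGE E18.5 with a log2 difference of -2.95 (limma adjusted p = 0.00152). The fall in CGE cells lost its call without CGE E16.5 replicate 2 (-1.84, adjusted p = 0.0805), without CGE E16.5 replicate 3 (-2.08, adjusted p = 0.0723) and in a fit of the CGE arrays alone (-2.02, adjusted p = 0.107). CGE E18.5 replicate 2 weighed on 2 values: without it the fall was -1.29 (adjusted p = 0.0418) and the late lineage difference was 0.00, while without CGE E18.5 replicate 1 the late difference was 1.28 (adjusted p = 0.0731).

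The second Cxcl14 probe set, 1418456_a_at, followed the same directions. It read 4.36, 4.86 and 4.43 in MGE E14.5, 9.62, 9.03 and 8.46 in CGE E16.5, 7.45, 7.18 and 7.68 in MGE E18.5 and 7.56, 5.64 and 6.91 in CGE E18.5. The array order within CGE E16.5 differed between the probe sets, while CGE E18.5 replicate 2 was the lowest of its group on both. In CGE E18.5, 1418456_a_at averaged 6.70 with 1 of 3 arrays above the filter level, and 1418457_at had 2 of 3 above it. The fall in CGE cells thus ended in a partly dim group. Adjusted over 16008 probe sets, the log2 differences of 1418456_a_at were -4.49 ± 0.41 in the early comparison (limma adjusted p = 2.61e-05) and 0.73 ± 0.41 in the late one (limma adjusted p = 0.235). It rose in MGE cells by 2.89 ± 0.41 (limma adjusted p = 0.000465), fell in CGE cells by 2.33 ± 0.41 (limma adjusted p = 0.00808), and its lineage difference changed by 5.22 ± 0.59 (limma adjusted p = 0.000153). It was called in the early comparison, in both maturation comparisons and in the change of the lineage difference, where 9.65%, 19.4%, 10.2% and 9.25% of all probe sets were called, and not in the late comparison, where 22.6% were. Both probe sets read the same RNA, so they are not independent samples.

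**Figure D3:**
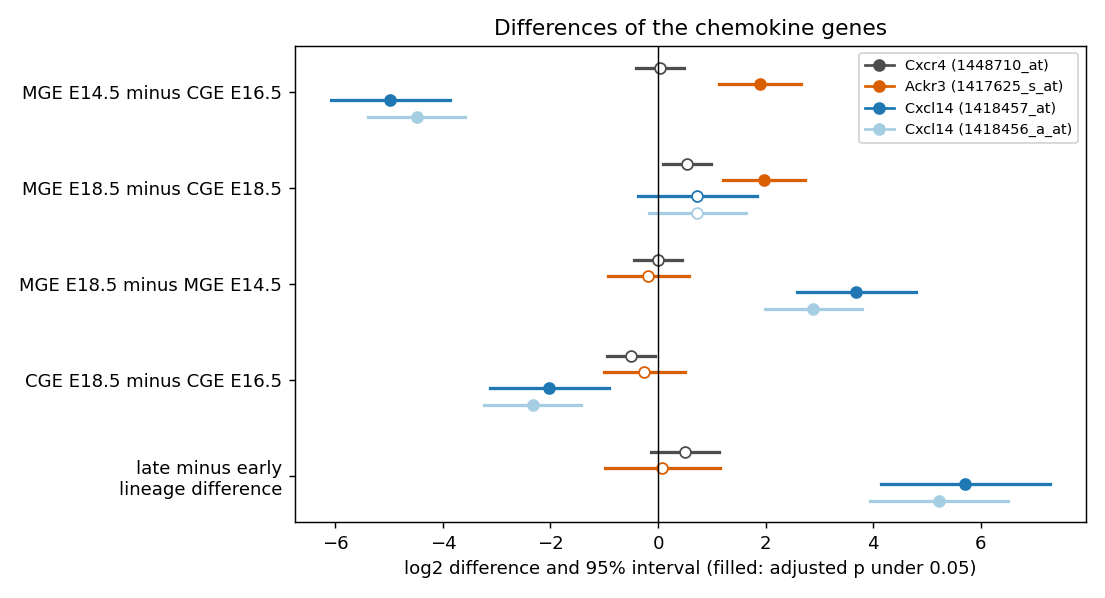
Log2 differences with 95% intervals (x axis) for the 4 probe sets in 5 comparisons (y axis), with filled points where the adjusted p was under 0.05. Cxcr4 has open points throughout, Ackr3 is filled in both lineage comparisons at 1.90 and 1.97, and the 2 Cxcl14 probe sets are filled in all comparisons but the one at E18.5.

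Counted over the 3 genes, 2 were called in the early comparison, 1 in each direction, where 10.1% of all genes tested were called, 4.16% as higher in MGE and 5.9% as lower. In the late comparison 1 of 3 was called, where 22.8% of all genes were, 13% as higher in MGE and 9.85% as lower. MGE maturation called 1 of 3 against 21.2% of all genes, CGE maturation 1 of 3 against 10.9%, and the change of the lineage difference 1 of 3 against 8.64%. With 3 genes these counts describe the members and no more. The comparisons share arrays, so their values for a gene are not independent, and the early comparison sets different embryonic days against each other, so there the effects of lineage and day cannot be told apart.

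Other cell types moved with the Cxcl14 rise in MGE cells. Of 14 oligodendrocyte precursor markers, all of them tested, 13 rose between E14.5 and E18.5 in MGE cells, where 11.4% of all genes rose. The median log2 difference was 4.11 over the list against -0.06 over all genes. Sox10, Olig2, Nkx2-2, Gpr17, Bcan, S100b, C1ql1 and Scrg1 averaged above the filter level in MGE E18.5 alone, so they entered the tests where they were high. The count and median of the list therefore carry no weight. Olig1 and Ptprz1 averaged above the level at both ages, at 8.38 and 8.33 in MGE E14.5 and 12.19 and 11.52 in MGE E18.5. Vcan did so too, at 11.39 and 11.79. Pdgfra, the receptor that marks these precursors, read 8.03, 8.43 and 7.42 in MGE E14.5 and 12.52, 12.25 and 12.70 in MGE E18.5. The mean of 12 genes of radial glia and astrocytes went from between 7.49 and 8.05 in MGE E14.5 to between 9.08 and 9.27 in MGE E18.5. The 3 tested microglial genes, Tyrobp, C1qb and Csf1r, rose in both lineages, where 4.49% of all genes rose in CGE cells. All 3 averaged below the filter level at the early ages and entered the tests through E18.5 groups, so these calls carry no weight. Csf1r in MGE E18.5 (6.92) and C1qb in CGE E18.5 (6.78) also averaged below the level. The mean of 8 microglial genes was 4.21 to 4.51 in MGE E14.5 and 4.71 to 5.10 in CGE E16.5. It was 5.65 to 6.20 in MGE E18.5 and 5.53 to 6.63 in CGE E18.5. In CGE cells Cxcl14 was as high as 10.04 on an array whose precursor marker mean was 5.92, the lowest of the 12. The mean of 5 endothelial and pericyte genes also moved in MGE cells, from between 4.98 and 5.15 to between 5.78 and 6.19. The only tested gene of that list, Rgs5, averaged above the filter level in MGE E18.5 alone (7.54), so no rise is counted for it. The part of glial or other cells in the MGE rise was not tested.

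Reln and the list mean of Cajal-Retzius cell markers moved with the Cxcl14 fall in CGE cells. Of 3 tested genes 2, Reln and Ndnf, were called lower at E18.5 than at E16.5, where 10.9% of all genes were called in either direction. Ndnf averaged below the filter level in both E18.5 groups and was tested through the earlier ones, so its call carries no weight. The mean of 6 genes of the list went from between 6.97 and 7.26 to between 5.87 and 6.56. In MGE cells 1 of the 3 was called lower while Cxcl14 rose, where 21.2% of all genes were called in either direction. Reln, which encodes the secreted protein reelin, is also known from interneurons. The part of Cajal-Retzius cells in the fall was not tested.

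**Figure D4:**
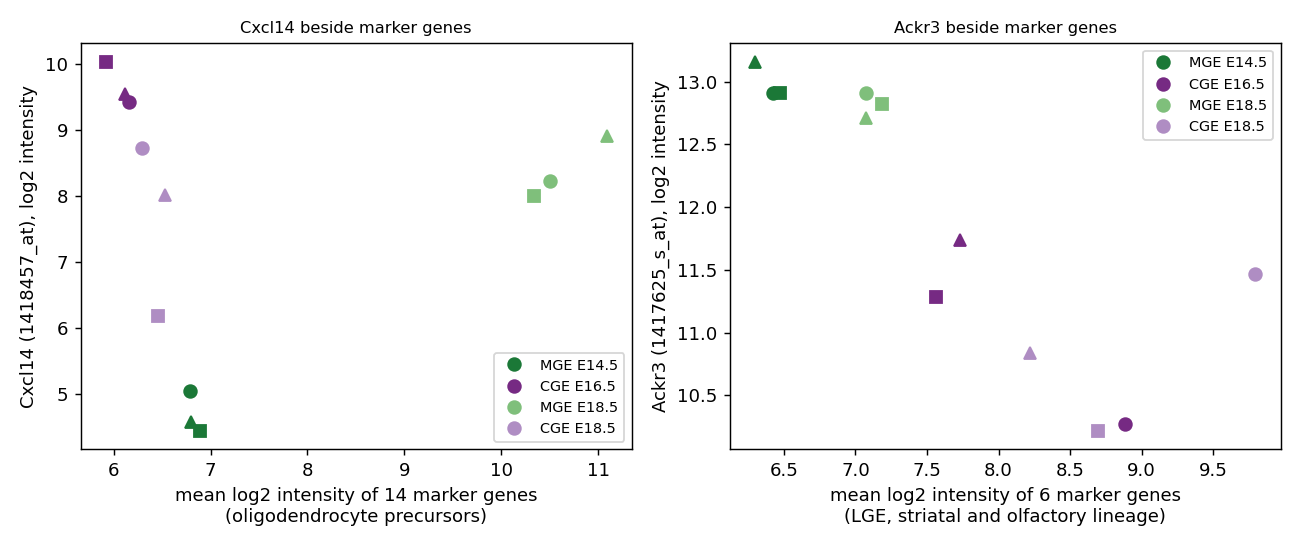
Each point is 1 of the 12 arrays, with Cxcl14 log2 intensity against the mean log2 intensity of 14 oligodendrocyte precursor markers on the left, and Ackr3 log2 intensity against the mean of 6 lateral eminence, striatal and olfactory genes on the right. The MGE E18.5 arrays stand alone at a precursor mean of 10.34 to 11.09, while the CGE E16.5 arrays have the highest Cxcl14 at a mean of 5.92 to 6.16.

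The nearest profiles to that of Cxcl14 were those of Sorcs3, Rapgef3 and C230057M02Rik, with root mean square differences of 0.892, 0.940 and 0.968 log2 units over the 12 arrays, farther than the nearest ones to Ackr3. Sorcs3, which encodes a neuronal sorting receptor, averaged 6.35 in MGE E14.5, 10.16 in CGE E16.5, 8.03 in MGE E18.5 and 8.93 in CGE E18.5. Rapgef3, which encodes a cAMP-activated exchange factor for Rap, averaged 4.83, 8.79, 8.33 and 8.81 in the same order. The group means of Cxcr4 spanned 0.54, under the span of 1 set for naming like genes, so none was named for it.

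The rest of the chemokine family was sparsely covered. Of 24 listed chemokine receptors 5 were in the table and 4 were tested, and of 37 listed chemokine ligands 6 were in the table and 3 were tested, the members included. In the early comparison 1 receptor was higher and none was lower by limma, also at an unadjusted p under 0.05, and among ligands 1 was higher and 1 lower in MGE cells. In the late comparison 1 receptor was higher and 1 lower, and no ligand was called by limma or had an unadjusted p under 0.05. Of all genes 10.1% were called in the early comparison and 22.8% in the late one, so these counts say little about the family.

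Ackr1 encodes an atypical receptor that binds many inflammatory chemokines without signalling through G proteins. It read 8.25, 8.35 and 8.27 in MGE E14.5, 8.35, 8.86 and 8.53 in CGE E16.5, 7.09, 7.02 and 7.13 in MGE E18.5 and 7.78, 7.55 and 7.62 in CGE E18.5. It fell with age in MGE cells by 1.21 ± 0.13 (limma adjusted p = 4.85e-05) and in CGE cells by 0.93 ± 0.13 (limma adjusted p = 0.00288). At E18.5 its log2 difference was -0.57 ± 0.13 (limma adjusted p = 0.00864), lower in MGE cells.

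Ackr4, an atypical receptor for CCL19, CCL21 and CCL25, lay between 9.82 and 10.62 on its brightest probe set, and Ccl25, a chemokine best known from thymus and gut, between 6.72 and 8.17. Neither was called in any of the 5 comparisons with limma, although Ccl25 had an unadjusted p of 0.0202 for its difference of -0.77 in CGE maturation. Ccl27a, a chemokine best known from skin, was higher in MGE cells in the early comparison by 0.87 ± 0.23 (limma adjusted p = 0.0306). That call was lost without MGE E14.5 replicate 1 (0.86, adjusted p = 0.0964) or 2 (0.73, adjusted p = 0.132) and without CGE E16.5 replicate 1 (0.79, adjusted p = 0.1) or 3 (0.79, adjusted p = 0.0971). Ccl27a fell with age in MGE cells by 1.01 ± 0.23 (limma adjusted p = 0.00842).

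Cx3cl1, Ccl3, Ccl9 and the receptor gene Ccr9 were below the filter level on all 12 arrays and were not tested. Ccl3, which microglia make, averaged 4.08 in MGE E14.5 and 5.64 in CGE E18.5, where it read 5.58, 6.95 and 4.39. Ccl9 read 4.29, 5.69 and 4.31 in CGE E18.5. Replicate 2 of that group, with the lowest Cxcr4, Ackr3 and Cxcl14, was thus its highest for both, as it was for the microglial list mean (6.63) and for the mean of 4 meningeal genes (5.68 against 4.73 and 5.55). Whether admixed cells lowered the members there was not tested.

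**Figure D5:**
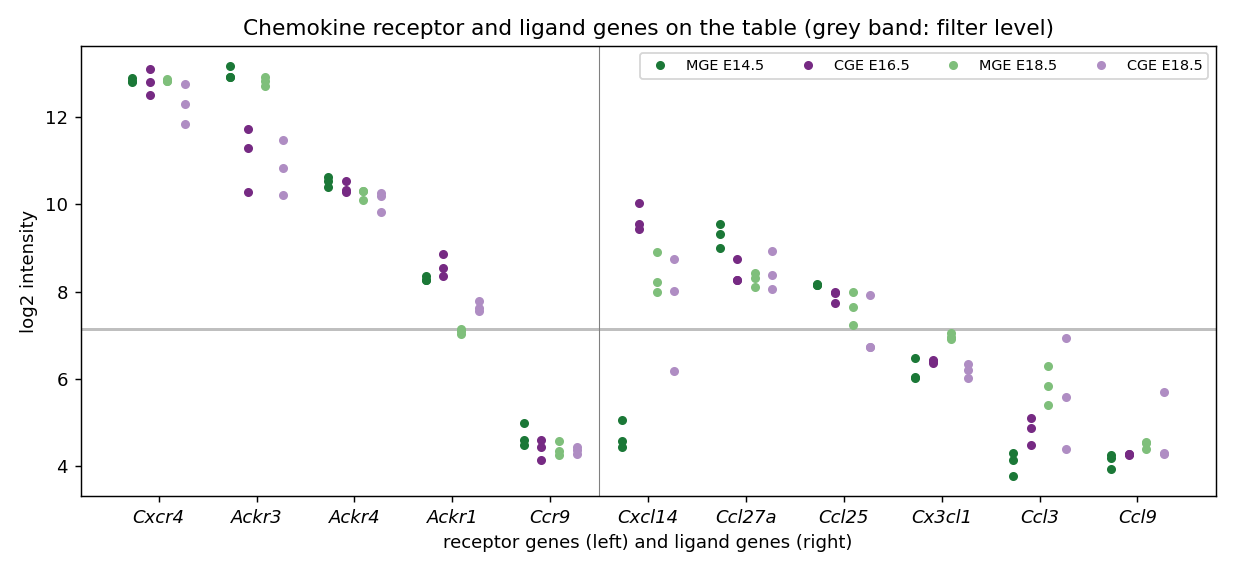
Log2 intensity (y axis) of 5 chemokine receptor genes and 6 chemokine ligand genes (x axis) on the 12 arrays, coloured by group, each gene by 1 probe set, with the filter level of 7.10 to 7.17 as a grey band. Groups can be compared within a gene only, since probe sets differ in brightness, and Ccr9, Cx3cl1, Ccl3 and Ccl9 stay below the band on every array.

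Genes of other ligands, partners and proteases of CXCR4, ACKR3 and CXCL12 were counted next. Of 18 listed 9 were in the table and 7 were tested, of which 2 were higher and 1 lower in MGE cells in the early comparison and 3 were higher and 2 lower in the late one. Of all genes 4.16% were called higher and 5.9% lower early, and 13% were called higher and 9.85% lower late. The early calls were Adm, Mmp2 and Mmp14. The late calls were Mmp2, Calcrl, Ramp2, Mmp14 and Ackr1, which is also counted among the receptors above. For the reasons given below all but Adm and Ackr1 carry no weight, so these counts say little about the list. Adrenomedullin, encoded by Adm, is a peptide that ACKR3 also binds. Adm read 10.25, 11.03 and 8.97 in MGE E14.5, 7.21, 5.01 and 4.51 in CGE E16.5, 12, 11.68 and 10.16 in MGE E18.5 and 6.58, 9.87 and 10.74 in CGE E18.5. Its early difference was 4.50 ± 1.02 (limma adjusted p = 0.0147), with adjusted p of 0.0545 to 0.0659 without MGE E14.5 replicate 1 or 2 or without CGE E16.5 replicate 2 or 3.

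Calcrl and Ramp2 encode the subunits of the signalling adrenomedullin receptor. Calcrl read 8.89, 8.66 and 9.29 in MGE E18.5 and between 3.54 and 3.90 on the other 9 arrays. Ramp2 read 7.31, 7.98 and 8.59 in MGE E18.5 and averaged 5.58, 5.78 and 5.53 in MGE E14.5, CGE E16.5 and CGE E18.5. Both genes passed the filter through MGE E18.5 alone and were dim in the other groups, so their levels are given without a fold or test, and their counts above carry no weight. The arrays on which they were high also carried the precursor markers and the higher radial glial and microglial means given above. The mean of 5 genes of endothelium and pericytes was 5.78 to 6.19 there, against 4.98 to 5.15 in MGE E14.5, 5.13 to 5.39 in CGE E16.5 and 5.46 to 6.08 in CGE E18.5. The part of these cells was not tested.

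Matrix metalloproteinases can cleave CXCL12. Mmp2 averaged 8.05 in MGE E14.5, 6.48 in CGE E16.5, 6.50 in MGE E18.5 and 4.92 in CGE E18.5, so only the first group lay above the filter level and the late comparison was between dim groups. Mmp2 therefore entered the tests through the group where it was high, so no difference or test is given and its counts above carry no weight. Mmp14, which activates MMP2, went the other way. It averaged 5.78 in MGE E14.5 and 7.44 in CGE E16.5. At E18.5 its mean was again below the filter level in MGE cells and above it in CGE cells. Mmp14 therefore entered the tests through the CGE groups, where it was high. No difference or test is given for Mmp14 either, and its counts above carry no weight.

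Downstream of CXCR4, 28 of 41 listed genes for G proteins, their regulators, kinases and arrestins were tested. In the early comparison 3 were higher and 6 lower in MGE cells, and in the late one 5 were higher and 4 lower, with median differences of -0.12 and 0.08. Over all genes 4.16% were higher and 5.9% lower early, and 13% were higher and 9.85% lower late. Rgs16, a regulator that shortens G protein signals, was lower in MGE cells at both ages, with log2 differences of -2.69 ± 0.25 early (limma adjusted p = 2.86e-05) and -1.40 ± 0.25 late (limma adjusted p = 0.0016). It read 7.66, 7.32 and 8.38 in MGE E14.5 and 10.18, 10.53 and 10.73 in CGE E16.5. Gnaz, which encodes an inhibitory G protein subunit, was higher in MGE cells by 0.95 ± 0.20 early (limma adjusted p = 0.0109) and 0.77 ± 0.20 late (limma adjusted p = 0.0179). Its late call was lost without replicate 2 or 3 of either E18.5 group, with adjusted p of 0.0541 to 0.0704. Other genes of inhibitory G protein subunits went the other way. Gnai1 (-0.58, limma adjusted p = 0.00776) and Gnai2 (-0.76, limma adjusted p = 0.0112) were lower in MGE cells early. Gnai3 (-0.65, limma adjusted p = 0.00478) and Gnao1 (-0.47, limma adjusted p = 0.0299) were lower late.

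Arrb1, which encodes beta-arrestin 1, was higher in MGE cells at E18.5 by 0.96 ± 0.10 (limma adjusted p = 3.47e-05). It read 10.78, 10.79 and 10.70 in MGE E18.5 and 9.74, 9.72 and 9.94 in CGE E18.5, and it fell with age in CGE cells by 0.58 ± 0.10 (limma adjusted p = 0.00727). That fall had an adjusted p of 0.0715 in a fit of the CGE arrays alone. Arrb2, which encodes beta-arrestin 2, was not called at E18.5 (MGE minus CGE -0.18, limma adjusted p = 0.267). Grk3, a kinase that acts on CXCR4, was higher in MGE cells by 1.32 ± 0.30 early (limma adjusted p = 0.015), with adjusted p of 0.0508 to 0.0596 without MGE E14.5 replicate 2 or 3 or CGE E16.5 replicate 1 or 3. Pik3r1, the regulatory subunit of PI3 kinase, was lower in MGE cells in the early comparison, at -1.76 ± 0.19 (limma adjusted p = 9.05e-05). It rose in MGE cells by 1.89 ± 0.19, from a mean of 9.58 to 11.46.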

How the data were processed

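RNA of sorted cells was converted to cDNA, amplified (NuGEN Ovation Pico) and hybridised to Affymetrix whole-genome mouse arrays. The values deposited by the authors are log2 intensities, corrected for background and normalised before deposit with Bioconductor per the methods. The submitters' processing notes list MAS5, so the exact algorithm is not settled. Of 27094 rows, 34 were Affymetrix controls, 22339 had 1 gene symbol in the platform annotation, 571 several and 4150 none. Entrez identifiers of 22269 matched RefSeq genes of GRCm38.p6, and 0 symbols differed.

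Dim probe sets were removed: 3 or more arrays had to exceed their 40th percentile (7.10 to 7.17), which kept 16008. Each gene was read by its brightest kept probe set (8795 genes). No pseudocount was needed. Limma 3.58.1 in R 4.3.3 fitted 1 mean per group over all 12 arrays with 8 residual and 3.60 prior degrees of freedom. Tests were two-sided, with Benjamini-Hochberg adjustment over all genes tested, and calls were made at an adjusted p under 0.05. Columns of other series numbered 0. The fit was tested on simulated data.

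All members and their probe sets are given, together with chemokine family genes in the table, up to 5 genes per pathway list called in a lineage comparison with the largest differences, the lineage genes that check the labels, and the 3 genes of most similar profile where group means spanned at least 1. Other genes of these lists are named where they limit a statement. The members and lists were chosen with earlier results of these data known. Alternatives covered the filter, normalisation, probe set summary, samples in the fit, array weights, moderation, a replicate block, the close pair of arrays and leaving out each array. Upstream windows came from RefSeq, and matches were sought on both strands. The number of arrays limits the precision.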

Additional observations from a re-analysis of the deposited data

Results flagged for a closer look

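The lineage difference of Cxcl14 changed between the ages, tested as an interaction in the limma fit. With 1418457_at the late minus early difference was 5.71 (adjusted p = 0.000349), from -4.98 to 0.73, and with 1418456_a_at it was 5.22 (adjusted p = 0.000153), from -4.49 to 0.73. The early pair sets E14.5 against E16.5, where lineage cannot be told apart from day.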

How the results depend on the processing

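The members were refitted under 23 alternatives per comparison (22 for the change of the lineage difference). Ackr3 kept its calls in both lineage comparisons, at 1.49 to 2.22 early and 1.66 to 2.29 late, and Cxcl14 kept its calls early (-5.16 to -4.73), in MGE maturation (3.29 to 3.88) and in the change of the lineage difference. The fall of Cxcl14 in CGE cells ran from -2.57 to -1.29 and lost its call in a fit of the 2 groups alone, at -2.02 for 1418457_at and -2.33 (adjusted p = 0.0606) for 1418456_a_at. For 1418457_at the call was also lost without CGE E16.5 replicate 2 (-1.84, limma adjusted p = 0.0805) or replicate 3 (-2.08, limma adjusted p = 0.0723).

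Leaving out 1 array at a time gave Cxcr4 -0.11 to 0.19 early, 0.31 to 0.77 late, -0.0228 to 0.0187 in MGE maturation and -0.73 to -0.28 in CGE maturation. It gave Ackr3 -0.67 to 0.0621 in CGE maturation, with the sign turning without CGE E16.5 replicate 3 or CGE E18.5 replicate 2. In the change of the lineage difference it gave Ackr3 -0.24 to 0.49, with the sign turning without CGE E16.5 replicate 2 or 3 or CGE E18.5 replicate 2. Cxcl14 ran from -2.57 to -1.29 in CGE maturation. Uncalled values also turned sign with quantile normalisation and with array weights (Cxcr4 in MGE maturation, 0.0145 and 0.0104) and without CGE E16.5 replicate 1 and CGE E18.5 replicate 2 together (Cxcr4 early, -0.11).

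The number of genes called moved more than the members did. From 885 early, 2009 late, 1866 in MGE maturation, 955 in CGE maturation and 760 in the change, it moved with the array weights and the arrays used. Testing each of 16008 probe sets on its own called 1544, 3624, 3111, 1630 and 1480 of them, which are probe sets and not genes and make 9.65%, 22.6%, 19.4%, 10.2% and 9.25%, against 10.1%, 22.8%, 21.2%, 10.9% and 8.64% of genes. Array weights gave 1814 early, 3490 in MGE maturation and 543 in CGE maturation, and averaging MGE E14.5 replicates 1 and 2 gave 546 early and 1210 in MGE maturation. CGE maturation called 175 genes in a fit of its 2 groups and 508 without CGE E16.5 replicate 1 and CGE E18.5 replicate 2, where MGE maturation called 2116. Leaving out 1 array gave 532 to 1004 genes early, 1168 to 2012 in MGE maturation and 374 to 1207 in CGE maturation. For these the cause was not tested.

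Replicate numbers are shared between groups in the titles, but deviations of same-numbered arrays correlated at -0.17 to 0.28, and 5 of 12 arrays correlated best with their own number, so the numbers were not taken as pairs. With a replicate block Ackr3 was called early (adjusted p = 0.00895) and late (adjusted p = 0.00359), 828 genes were called early, and no call of the members changed.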
